A study of Mus musculus with 20 samples.

Results

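The polysome association change of a gene is its KO against WT difference in polysome RNA less its KO against WT difference in total RNA, on a log2 scale. It was derived from mouse embryonic stem cells (ESCs) on day 3 of the deletion of Cnot3, a subunit of the CCR4-NOT deadenylase complex. A positive value means that the KO level, relative to WT, was higher in polysomes than in the whole cell. The genes described were the protein-coding ones with at least 5 CPM (read counts scaled to library size, here by TMM) in every one of the 8 day 3 libraries. They numbered 9570 of the 37991 gene IDs counted and of the 18303 genes that entered the test. The members were chosen by their CPM in these libraries, and the contrast they are described by is measured in the same ones, so levels are descriptions here, and the independent readouts are those of the actinomycin D series.

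The 8 libraries were polysome RNA of KO cells, polysome RNA of WT cells, total RNA of KO cells and total RNA of WT cells, with 2 biological replicates each. KO cells were Cnot3 conditional knockout ESCs given 0.1 µM 4-hydroxytamoxifen (4OHT), the ligand that switches on a tamoxifen-dependent recombinase. Per the series' design, WT cells were the same conditional line given DMSO, the solvent. The sample labels give E14Tg2a ESCs for the WT libraries of day 3 and Cnot3 cKO ESCs for the KO libraries, all of strain C57BL/6, so a difference between lines and the deletion cannot be told apart on day 3. In the actinomycin D series, 12 libraries of total RNA from day 2, both KO and WT cells carry the Cnot3 cKO label. In both series KO cells had been given 4OHT and WT cells had not. An effect of 4OHT, or of the recombinase it switches on, thus cannot be told apart from the deletion on either day. How many clones were used, and how the fractions of the gradient were pooled, are not given in the sources used here.

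A polysome is an mRNA with several ribosomes on it, and the level of a transcript in polysomes relative to the whole cell is a common measure of how much of it is engaged in translation. CCR4-NOT shortens the poly(A) tails of mRNAs, which starts their decay, and it can also repress translation of its targets. The tail binds poly(A)-binding protein, which contacts the initiation factors at the cap. Cnot3 is a non-catalytic subunit that joins Cnot2 in a module docked on the scaffold Cnot1, and it is known as a gene that mouse ESCs need for self-renewal.

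Cnot3 had 15.2 and 16.6 CPM in KO polysomes, against 95.6 and 78.0 CPM in WT polysomes. In total RNA it had 7.33 and 8.12 CPM in KO cells, against 46.2 and 47.1 CPM in WT cells. Every KO library was thus below every WT library of its fraction, and the fold was close in both, with an association change of 0.15 ± 0.21 (SE, n = 2 per group). Polysome libraries held 13832829 to 16688555 gene counts and total libraries 27664391 to 35170012.

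WT polysome replicate 2 stood apart from the other polysome libraries. Mitochondrially encoded mRNAs took 5.02% of its counts, against 1.38% in WT polysome replicate 1 and 1.16% and 0.912% in KO polysomes. Across the 9570 genes, log2 polysome over total values, each set against the mean total level of its genotype, correlated at 0.81 to 0.86 between this library and the other polysome libraries, and at 0.93 to 0.96 among those others (Pearson, a description over genes that share total libraries within a genotype). Replicates of a gene differed by a median of 0.137 log2 units in KO polysomes and 0.332 in WT polysomes. The counts of the 2 replicates of a group gave a chi-square, divided by its degrees of freedom, of 10.7 in KO polysomes, 77.0 in WT polysomes, 8.37 in KO total RNA and 12.8 in WT total RNA. Which WT polysome library is nearer to other WT cultures was not tested, and many values below are therefore given with and without replicate 2.

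No gene among the 9570 passed the test of a difference between the KO changes of the fractions. Among genes whose polysome over total values did not overlap between KO and WT, the largest positive changes were those of Id2, Anxa1 and Efnb2. On the negative side they were those of Mid1, Ogt and Idua. With edgeR's quasi-likelihood test and Benjamini-Hochberg adjustment over all genes tested, 0 of the 9570 reached an adjusted p under 0.05, where 0.0109% of all genes tested did. The smallest adjusted p was 0.106, that of Nrp2. At an unadjusted p under 0.05 there were 174 genes with a positive and 882 with a negative association change, against 3.68% and 8.91% of all genes tested in those directions. Under DESeq2, 12 genes passed with a positive change, where 0.175% of all genes tested did, and 27 with a negative change, where 0.191% did.

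The association change had a median of -0.06 over the 9570 genes and of -0.08 over all genes tested. Its quartiles were -0.33 and 0.13, and its range ran from -1.89 to 1.41. At or above 1 there were 17 genes, and at or below -1 there were 162. The median SE of a gene was 0.233, which gave 95% intervals with a median reach of 0.515 to either side of the value. For 7442 genes (77.8%) the interval lay wholly between -1 and 1, so a change of more than 2-fold in either direction lay outside the interval for these. Log2 polysome over total values were also taken for every pairing of a polysome with a total library of the same genotype. All KO values lay above all WT values in 784 genes and below them in 2038, beside 11.0% and 19.0% of all genes tested.

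Each fraction had its own KO changes. In polysome RNA 989 genes rose, where 15.9% of all genes tested did, and 2787 fell, where 21.1% did. In total RNA 905 rose, where 16.0% of all genes tested did, and 1552 fell, where 12.2% did. These counts depend on the libraries and the scaling. With 1 of the 4 total libraries left out in turn, 176 to 251 rose and 410 to 703 fell in total RNA, and with 1 of the 4 polysome libraries left out, 504 to 2300 rose and 1373 to 3759 fell in polysomes. Scaled to library totals, 2163 rose and 552 fell in total RNA, and 2111 rose and 1312 fell in polysomes. In the fit with all libraries and TMM scaling, levels in both fractions rose for 612 genes, which were 61.9% of those that rose in polysomes and 67.6% of those that rose in total RNA. Both fell for 1246 genes, which were 44.7% of those that fell in polysomes and 80.3% of those that fell in total RNA. Opposite calls were rare, with 1 gene up in polysomes and down in total RNA and 2 the other way. A further 1915 genes passed in polysomes alone and 596 in total RNA alone. No difference between the fractions passed the test for any of them. The joint calls of the fractions were counted among the members only. Their shares over all genes tested were not counted, so whether members differ from other genes in this was not tested.

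**Figure D1:**
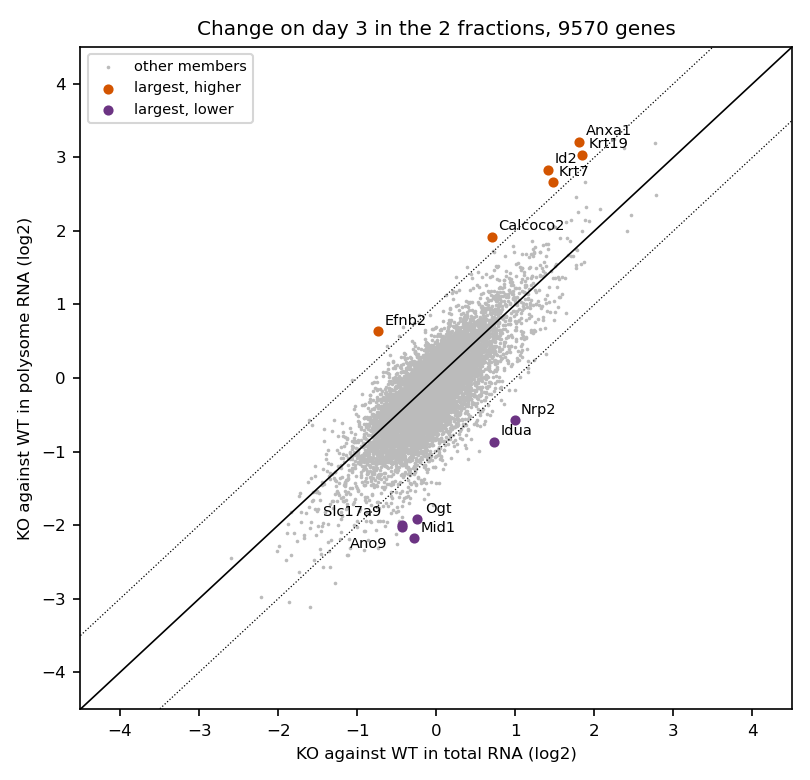
KO against WT log2 change in polysome RNA (vertical) plotted over that in total RNA (horizontal) for 9570 genes, 1 point each; the solid line marks equal change and the dotted lines an association change of 1 or -1. Points lie along the solid line, with 17 at or above the upper dotted line and 162 at or below the lower, and the 12 named genes lie outside.

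Id2, Anxa1, Efnb2, Calcoco2, Krt19 and Krt7 had the 6 largest positive values among genes whose KO and WT polysome over total values did not overlap. None of them passed edgeR's test of the association change. Under DESeq2 Id2, Anxa1, Efnb2 and Calcoco2 had an adjusted p under 0.05, and Krt19 and Krt7 did not. In total RNA 5 of the 6 rose and Efnb2 fell. Coordinates of named genes are those of GRCm38.

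Id2 (chr12:25093799-25097140, minus strand) encodes an inhibitor of basic helix-loop-helix transcription factors. It had 123 and 155 CPM in KO polysomes, against 21.9 and 17.2 CPM in WT polysomes. In total RNA it had 76.5 and 71.2 CPM in KO cells, against 29.5 and 25.7 CPM in WT cells. The groups did not overlap in either fraction, and the association change was 1.41 ± 0.24 (edgeR adjusted p = 0.207). Anxa1 (chr19:20373428-20390944, minus strand), a calcium-dependent phospholipid-binding protein, had 90.0 and 154 CPM in KO polysomes, against 16.0 and 10.4 CPM in WT polysomes. Its total RNA levels were 58.0 and 51.7 CPM in KO cells, against 15.5 and 15.8 CPM in WT cells. The association change was 1.40 ± 0.36, with KO polysome replicate 2 well above replicate 1.

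Efnb2 (chr8:8617434-8661242, minus strand) encodes ephrin-B2, a membrane ligand of Eph receptors. It had 15.9 and 19.3 CPM in KO polysomes, against 8.89 and 13.6 CPM in WT polysomes. In total RNA the order was the other way, with 14.6 and 15.7 CPM in KO cells, against 23.0 and 27.4 CPM in WT cells. Efnb2 was the gene that rose in polysomes (log2 change 0.64 ± 0.21, edgeR adjusted p = 0.0346) and fell in total RNA (-0.74 ± 0.20, edgeR adjusted p = 0.0209), yet its association change of 1.38 ± 0.29 had an adjusted p of 0.212 by edgeR. Calcoco2 (chr11:96099326-96111964, minus strand), an autophagy receptor, had 55.0 and 68.9 CPM in KO polysomes, against 19.8 and 13.0 CPM in WT polysomes. Total RNA of Calcoco2 stood at 129 and 125 CPM in KO cells, against 80.0 and 76.8 CPM in WT cells, which gave an association change of 1.22 ± 0.27.

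Krt19 (chr11:100140810-100148665, minus strand) and Krt7 (chr15:101411043-101430313, plus strand) are keratins of simple epithelia. Krt19 had 87.2 and 166 CPM in KO polysomes, against 15.8 and 15.1 CPM in WT polysomes. In total RNA Krt19 had 35.6 and 34.9 CPM in KO cells, against 9.70 and 9.92 CPM in WT cells. For Krt7 the polysome levels were 40.5 and 76.8 CPM in KO cells, against 7.88 and 10.6 CPM in WT cells. Its total levels were 17.0 and 16.4 CPM in KO cells, against 5.13 and 6.95 CPM in WT cells. The association change was 1.19 ± 0.35 for Krt19 and 1.19 ± 0.40 for Krt7, and in both KO polysome replicate 2 was far above replicate 1 while the KO total libraries lay close together.

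At the negative end, the 6 largest values with no overlap were those of Mid1, Ogt, Idua, Ano9, Nrp2 and Slc17a9, and none passed edgeR's test. Under DESeq2 Ogt and Nrp2 had an adjusted p under 0.05, and the others did not. In 5 of the 6, WT polysome replicate 2 lay far above the other 3 polysome libraries.

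Mid1 (chrX:169685199-170005736, plus strand) encodes a microtubule-associated ubiquitin ligase. It had 9.60 and 11.7 CPM in KO polysomes, against 19.9 and 75.7 CPM in WT polysomes. In total RNA it had 7.84 and 8.60 CPM in KO cells, against 8.96 and 11.0 CPM in WT cells. Its association change of -1.89 ± 0.64 was the lowest of all, and it was -0.62 without WT polysome replicate 2. Ogt (chrX:101640060-101684351, plus strand) encodes the enzyme that adds O-GlcNAc to proteins. It had 65.3 and 83.7 CPM in KO polysomes, against 156 and 408 CPM in WT polysomes. Total RNA held 210.5 and 217 CPM in KO cells, against 254 and 252 CPM in WT cells. The association change of Ogt was -1.68 ± 0.47, and -0.82 without WT polysome replicate 2.

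Idua (chr5:108660331-108684557, plus strand), a lysosomal enzyme that degrades glycosaminoglycans, had 7.26 and 10.2 CPM in KO polysomes, against 9.90 and 21.8 CPM in WT polysomes. Its total RNA levels were 7.84 and 9.68 CPM in KO cells, against 5.06 and 5.50 CPM in WT cells. The polysome levels of the genotypes overlapped, and the ratio to total RNA did not, with an association change of -1.60 ± 0.45. Ano9 (chr7:141101212-141117806, minus strand), of the anoctamin family of membrane proteins, had 11.99 and 13.3 CPM in KO polysomes, against 25.5 and 76.9 CPM in WT polysomes. In total RNA Ano9 had 27.4 and 27.2 CPM in KO cells, against 36.4 and 37.2 CPM in WT cells. Slc17a9 (chr2:180725263-180742280, plus strand), a vesicular nucleotide transporter, had 23.8 and 26.4 CPM in KO polysomes, against 60.3 and 139.5 CPM in WT polysomes. In total RNA Slc17a9 had 12.1 and 11.3 CPM in KO cells, against 16.4 and 15.3 CPM in WT cells. Without WT polysome replicate 2 the association changes of Idua, Ano9 and Slc17a9 were -0.91, -0.58 and -0.82, against -1.60, -1.59 and -1.56 with it.

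Nrp2 (chr1:62703285-62818695, plus strand) encodes neuropilin 2, a co-receptor for semaphorins and vascular endothelial growth factors, and differed from the other 5. It had 122 and 136 CPM in KO polysomes, against 208 and 176 CPM in WT polysomes. In total RNA the order was reversed, with 70.8 and 63.6 CPM in KO cells, against 36.9 and 30.6 CPM in WT cells. Nrp2 fell in polysomes (log2 change -0.58 ± 0.16, edgeR adjusted p = 0.015) and rose in total RNA (0.99 ± 0.16, edgeR adjusted p = 0.0017). Its association change was -1.57 ± 0.22 (95% interval -2.06 to -1.08), -1.44 without WT polysome replicate 1 and -1.69 without replicate 2.

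**Figure D2:**
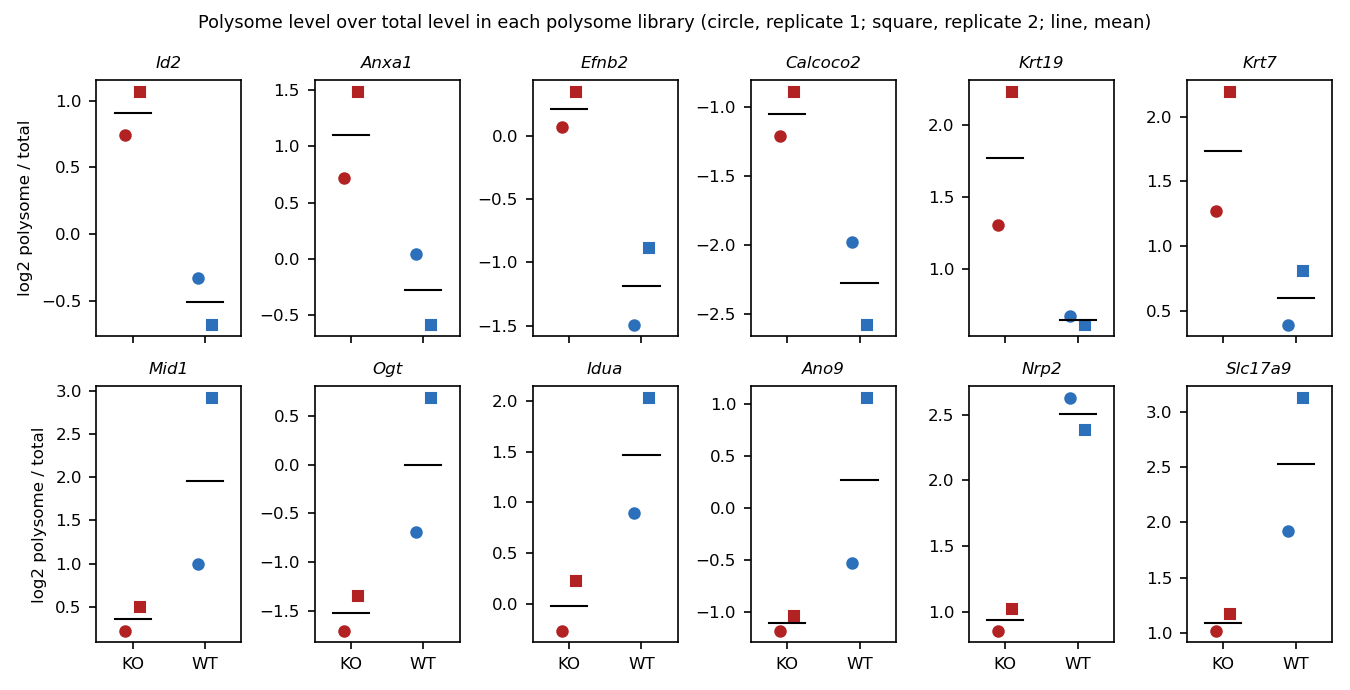
Log2 polysome over total level in each polysome library, KO left and WT right. Shown are the 6 largest positive (top) and 6 largest negative (bottom) association changes among genes without overlap of KO and WT. Circles are replicate 1, squares replicate 2 and lines means of 2. In the lower row WT replicate 2 lies highest for Mid1, Ogt, Idua, Ano9 and Slc17a9, while for Nrp2 the WT libraries lie close together, at 2.63 and 2.38.

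Leaving out either WT polysome library changed the number of genes that passed. Without WT polysome replicate 1, which left replicate 2 as the sole WT polysome library, 1477 genes passed with a positive change, where 9.47% of all genes tested did, and 2239 with a negative change, where 17.7% did. Without replicate 2, 10 passed with a positive change, where 0.0983% of all genes tested did, and 46 with a negative change, where 0.279% did. In these fits the lone WT polysome library is taken to vary like the other groups. Without any of the other 6 libraries the count stayed at 0 in both directions.

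In 46 genes the threshold was passed with either WT polysome library left out, 7 with a positive change (0.0765% of all genes tested did so) and 39 with a negative one (0.24% did so). The 2 fits share the other 6 libraries, and the set was chosen after its values were seen, so it is a description with no test of its own. Under DESeq2 with all 8 libraries, 6 of the 7 and 19 of the 39 also had an adjusted p under 0.05. The 7 were Id2, Efnb2, Fam49a, Foxp1, Plk3, Msi2 and Pnkd.

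Foxp1, a forkhead transcription factor, had 69.4 and 61.2 CPM in KO polysomes, against 107 and 86.5 CPM in WT polysomes. In total RNA it had 42.5 and 46.6 CPM in KO cells, against 134 and 138 CPM in WT cells. Foxp1 fell in polysomes (log2 change -0.57 ± 0.15) and in total RNA (-1.61 ± 0.15), with an association change of 1.04 ± 0.21 that did not pass by edgeR (adjusted p = 0.207). Plk3, a stress-responsive kinase, had 127 and 130.4 CPM in KO polysomes, against 48.3 and 46.2 CPM in WT polysomes. Its total RNA levels were 60.6 and 63.0 CPM in KO cells, against 42.3 and 43.2 CPM in WT cells. Replicates of Plk3 lay close together in all 4 groups, and the association change was 0.91 ± 0.18. Msi2, an RNA-binding protein that regulates translation, had 125 and 119 CPM in KO polysomes, against 114 and 98.9 CPM in WT polysomes. Total RNA of Msi2 stood at 136 and 139 CPM in KO cells, against 219.8 and 201 CPM in WT cells. It fell in total RNA alone (log2 change -0.61 ± 0.14, edgeR adjusted p = 0.0104), with 0.19 ± 0.14 in polysomes.

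The 39 genes with a negative change had association values from -1.57 (Nrp2) to -0.63 (Snx30) with all 8 libraries. In polysomes 36 of them fell, where 21.1% of all genes tested did, and 0 rose, where 15.9% did. In total RNA 8 fell, where 12.2% of all genes tested did, and 5 rose, where 16.0% did. The 39 were chosen by the difference between the fractions in these same libraries, so these counts are a description. Fn1, the matrix glycoprotein fibronectin, had 88.8 and 73.5 CPM in KO polysomes, against 546 and 853 CPM in WT polysomes. Its total RNA levels were 148 and 177 CPM in KO cells, against 479 and 502 CPM in WT cells. Fn1 fell in both fractions, by 3.11 ± 0.23 in polysomes and by 1.59 ± 0.22 in total RNA on the log2 scale. Ntn1, the secreted guidance protein netrin 1, had 30.4 and 20.9 CPM in KO polysomes, against 139 and 132 CPM in WT polysomes. For total RNA of Ntn1 the levels were 23.5 and 22.5 CPM in KO cells, against 48.9 and 51.7 CPM in WT cells.

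Other members of the 39 did not fall in total RNA. Stard9, a kinesin, had 9.54 and 10.3 CPM in KO polysomes, against 18.2 and 20.1 CPM in WT polysomes. In total RNA Stard9 had 21.4 and 24.3 CPM in KO cells, against 17.9 and 17.2 CPM in WT cells. Rimklb, a ligase that adds glutamate to small molecules, had 50.8 and 46.2 CPM in KO polysomes, against 74.2 and 78.4 CPM in WT polysomes. Its total RNA rose (log2 change 0.56 ± 0.13, edgeR adjusted p = 0.0116) while its polysome RNA fell (-0.65 ± 0.13, edgeR adjusted p = 0.00394). Mt1, a metal-binding metallothionein, had 299 and 262 CPM in KO polysomes, against 203 and 243 CPM in WT polysomes. Mt1 rose in total RNA, with 241 and 212 CPM in KO cells, against 93.1 and 80.2 CPM in WT cells (log2 change 1.39 ± 0.17), and did not pass the test in polysomes (0.33 ± 0.16). Tex14, a germ cell gene, had a like pattern, with 89.7 and 87.4 CPM in KO total RNA, against 36.3 and 38.7 CPM in WT total RNA. In polysomes Tex14 overlapped, with 52.4 and 64.0 CPM in KO cells, against 53.1 and 45.4 CPM in WT cells. Stat2, a transcription factor of the interferon response, had 31.2 and 32.3 CPM in KO polysomes, against 52.8 and 67.4 CPM in WT polysomes. Its total levels were 38.5 and 39.1 CPM in KO cells, against 30.8 and 35.4 CPM in WT cells.

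**Figure D3:**
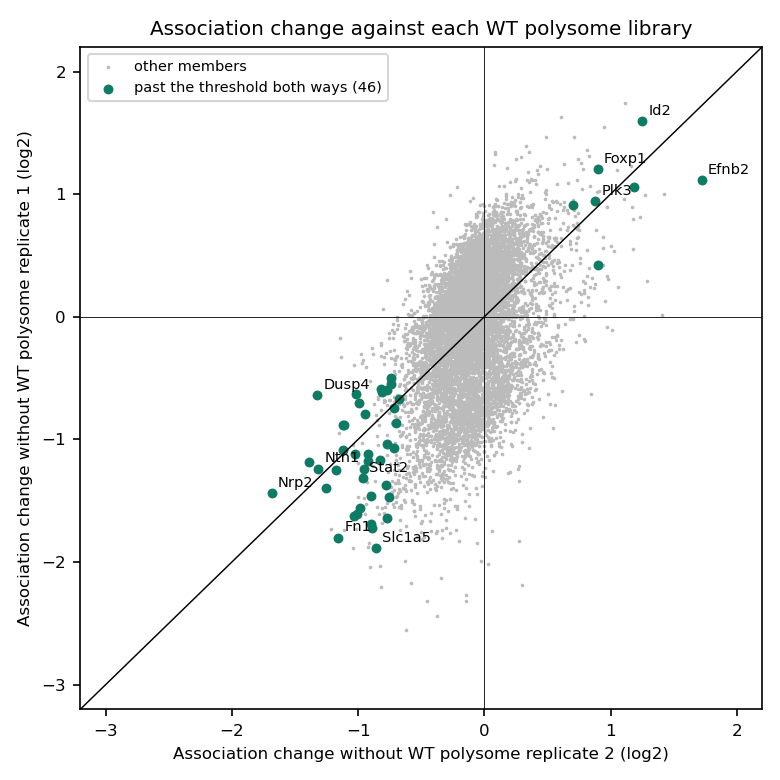
Association change of 9570 genes without WT polysome replicate 1 (vertical) over that without replicate 2 (horizontal), in log2 units; the 46 coloured genes passed the threshold in both fits and the diagonal marks equal values. The cloud is longer on the vertical axis, and Nrp2 lies at -1.69 and -1.44 while Id2 lies at 1.25 and 1.60.

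Gene lists by role were read against the 9570 genes as counts and medians, with no test of a list. In 17 of the 33 lists with a gene among the 9570 the median association change had opposite signs without WT polysome replicate 1 and without replicate 2, so both values are given for such lists where their median is named. The translation machinery came first. Cytosolic ribosomal proteins, the structural proteins of the ribosome, numbered 66 of a list of 79 and had a median association change of -0.12, with 0 past the threshold. It was -0.22 without WT polysome replicate 1 and 0.07 without replicate 2. In polysomes 49 of the 66 fell, where 21.1% of all genes tested did, and in total RNA 39 fell, where 12.2% did, and none rose. Relative to all 9570 genes their log2 polysome over total level was low in every polysome library, at -2.85 and -2.91 in KO cells and -3.15 and -2.72 in WT cells. The low level was thus a feature of both genotypes. Many ribosomal protein genes have processed pseudogenes with near-identical sequence, so their counts are uncertain, and a part of this in the low polysome values was not tested.

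Ribosomal protein mRNAs are known for a run of pyrimidines that starts with C at the first base, the 5′ terminal oligopyrimidine tract, through which their translation is controlled. It was looked for at the starts that RefSeq annotates, as C at the first base and at least 4 more of C or T. Of the 66 genes 51 matched a RefSeq promoter by symbol, and 12 of these (23.5%) held a tract in at least 1 window. Of the 9570 genes 7694 matched in this way, and 236 of them held a tract. Of 32851 single promoter windows 2.51% held one, which is another unit, since a gene can have several windows. The sequences show 3 genes with a long tract, and Rpl10 and Rpl12, the ribosomal protein genes with the smallest p, which had none. Each is given 5′ to 3′ from 10 bases before to 20 bases from the start (GRCm38.p6), with the tract in capitals.
Rpl15, chr14:18270967-18270996, minus strand: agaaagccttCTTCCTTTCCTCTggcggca
Rpl35, chr2:39005112-39005141, minus strand: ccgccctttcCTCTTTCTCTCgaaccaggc
Rps18, chr17:33955646-33955675, minus strand: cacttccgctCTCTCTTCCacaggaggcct
Rpl10, chrX:74270806-74270835, plus strand: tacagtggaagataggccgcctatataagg
Rpl12, chr2:32961702-32961731, plus strand: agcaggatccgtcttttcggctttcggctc

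Rpl15 had 80.8 and 74.3 CPM in KO polysomes, against 119.6 and 111 CPM in WT polysomes. In total RNA it had 520.5 and 468 CPM in KO cells, against 679 and 630.5 CPM in WT cells. Rpl10 had 7.20 and 8.40 CPM in KO polysomes, against 16.6 and 33.1 CPM in WT polysomes, beside 788 and 741 CPM in KO total RNA and 1074 and 973 CPM in WT total RNA. Both were lower in KO libraries of each fraction, and Rpl10 was scarce in polysomes of both genotypes. The 12 ribosomal protein genes with a tract had a median association change of -0.12, and so did the 39 without (-0.13), while without WT polysome replicate 2 the medians were 0.10 and 0.06. Among the remaining genes the median was -0.08 for 224 with a tract and -0.06 for 7419 without. A match of letters at an annotated start is a description and not a mapped 5′ end.

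Translation initiation factors, of which 45 of 46 were measured, had a median association change of 0.17, and elongation and termination factors (13 of 13) one of 0.15. Without WT polysome replicate 1 these were 0.43 and 0.33, and without replicate 2 they were -0.04 and -0.02. None passed the test. Eif2b4, a subunit of the exchange factor that recharges eIF2, had 145 and 132 CPM in KO polysomes, against 78.8 and 51.8 CPM in WT polysomes. In total RNA the levels of Eif2b4 were 152 and 147 CPM in KO cells, against 102 and 102 CPM in WT cells. Eif4g3, a scaffold of the cap-binding complex, had 56.2 and 92.2 CPM in KO polysomes, against 48.5 and 78.0 CPM in WT polysomes. It rose in total RNA, with 39.7 and 40.9 CPM in KO cells, against 17.1 and 19.0 CPM in WT cells, and its association change was -0.93 ± 0.35 (edgeR adjusted p = 0.339). Pabpc4, a poly(A)-binding protein, fell in polysomes, with 45.1 and 44.9 CPM in KO cells, against 89.1 and 102 CPM in WT cells. The 20 aminoacyl-tRNA synthetases, which charge tRNAs, had a median of -0.10, which was 0.36 without WT polysome replicate 1 and -0.37 without replicate 2. For the 73 mitochondrial ribosomal proteins it was 0.04, and 0.16 or -0.03 without those libraries in the same order. Genes named from the lists here and below are those with the smallest p of their list, chosen after the values were seen.

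The 11 CCR4-NOT subunits measured ran from -0.18 (Cnot10) to 0.23 (Cnot4), with 0 past the threshold and a median of 0.11, which was 0.27 without WT polysome replicate 1 and -0.04 without replicate 2. Cnot1, the scaffold, had 193 and 202 CPM in KO polysomes, against 306 and 192 CPM in WT polysomes. Cnot6, a catalytic subunit, had 80.7 and 100.2 CPM in KO polysomes, against 139 and 172 CPM in WT polysomes, and fell in both fractions. Among 35 other deadenylation, decapping and decay factors the median was -0.02, and 0.16 or -0.16 without those libraries, with a range of single genes from -0.59 to 0.69. Rc3h1, roquin, which recruits CCR4-NOT to stem-loops, had 71.0 and 87.9 CPM in KO polysomes, against 55.5 and 42.7 CPM in WT polysomes. Its total RNA was level, at 122 and 134 CPM in KO cells, against 124 and 132 CPM in WT cells, and the association change was 0.69 ± 0.24. Zfp36, which binds AU-rich elements and recruits the complex, had 21.3 and 31.8 CPM in KO polysomes, against 20.3 and 19.2 CPM in WT polysomes.

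Lists of secretory, matrix and cell surface proteins and of mitochondrially encoded mRNAs had negative medians that were nearer to 0 without WT polysome replicate 2. For 40 endoplasmic reticulum (ER) chaperones and translocon subunits the log2 polysome over total level, relative to all 9570 genes, was -0.35 and -0.41 in KO polysomes and -0.40 and 0.21 in WT polysomes. The list had a median association change of -0.41, which was -0.04 without WT polysome replicate 2. Hsp90b1, an ER chaperone, had 193 and 230.0 CPM in KO polysomes, against 382 and 735 CPM in WT polysomes. Total RNA held 433 and 440.1 CPM of it in KO cells, against 609.8 and 647 CPM in WT cells.

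For 25 genes of the extracellular matrix and basement membrane the same measure was -1.17 and -1.03 in KO polysomes and -0.96 and 0.07 in WT polysomes. Their median association change was -0.66 with all libraries and -0.13 without WT polysome replicate 2, and 2 of the 25 passed without it. P4ha1, which hydroxylates proline in collagen, had 19.9 and 19.6 CPM in KO polysomes, against 53.7 and 97.9 CPM in WT polysomes. For 47 cell surface receptors and adhesion proteins the measure was -0.50 and -0.38 in KO polysomes and -0.58 and 0.16 in WT polysomes, with a median change of -0.38 and, without that library, -0.07. Lrp2, a large endocytic receptor, had 13.2 and 11.96 CPM in KO polysomes, against 25.7 and 47.9 CPM in WT polysomes.

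The 7 mitochondrially encoded mRNAs measured, which are translated inside mitochondria and not on cytosolic polysomes, lay at 1.62 and 1.20 in KO polysomes and at 1.38 and 3.24 in WT polysomes. Their median association change was -1.32, and -0.02 without WT polysome replicate 2. mt-Nd5, a subunit of respiratory complex I, had 1215 and 823 CPM in KO polysomes, against 1996 and 4793 CPM in WT polysomes. In total RNA mt-Nd5 had 314 and 346 CPM in KO cells, against 479.9 and 414 CPM in WT cells. Their part in the values of the ER, matrix and receptor lists was not tested. The proteasome list was lowest in that library. For its 36 subunits the measure was 0.13 and -0.06 in KO polysomes and -0.09 and -0.67 in WT polysomes, with a median change of 0.24 and, without that library, 0.01. Psmc2, an ATPase of the proteasome, had 251 and 252 CPM in KO polysomes, against 206 and 139 CPM in WT polysomes.

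For the 20 cholesterol synthesis genes both WT polysome libraries lay above both KO ones. The measure was 0.10 and -0.04 in KO polysomes and 0.33 and 0.79 in WT polysomes. The median association change was -0.61, and -0.42 without WT polysome replicate 2. In 14 of the 20 every KO polysome over total value lay below every WT one, where 19.0% of all genes tested did. With all libraries 0 of the 20 passed the test. In total RNA 2 rose and 2 fell, and in polysomes 1 rose and 12 fell, beside 21.1% of all genes tested that fell there.

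Insig1, which holds the sterol-sensing complex in the ER, had 98.2 and 79.4 CPM in KO polysomes, against 203 and 247 CPM in WT polysomes. In total RNA Insig1 had 96.2 and 93.6 CPM in KO cells, against 119 and 104 CPM in WT cells. Insig1 fell in polysomes (log2 change -1.34 ± 0.17, edgeR adjusted p = 0.000265), with -0.23 ± 0.16 in total RNA and an association change of -1.11 ± 0.23. Cyp51, a sterol demethylase, had 85.5 and 77.0 CPM in KO polysomes, against 132 and 217 CPM in WT polysomes. Total RNA of Cyp51 was level, at 104 and 96.8 CPM in KO cells, against 95.8 and 97.4 CPM in WT cells. Srebf2, the transcription factor that drives the pathway, had 233 and 223 CPM in KO polysomes, against 451 and 546 CPM in WT polysomes. It also fell in total RNA, with 91.5 and 99.3 CPM in KO cells, against 139 and 144 CPM in WT cells. Many enzymes of this pathway are ER membrane proteins, and a part of the high ER values of WT polysome replicate 2 in theirs was not tested.

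**Figure D4:**
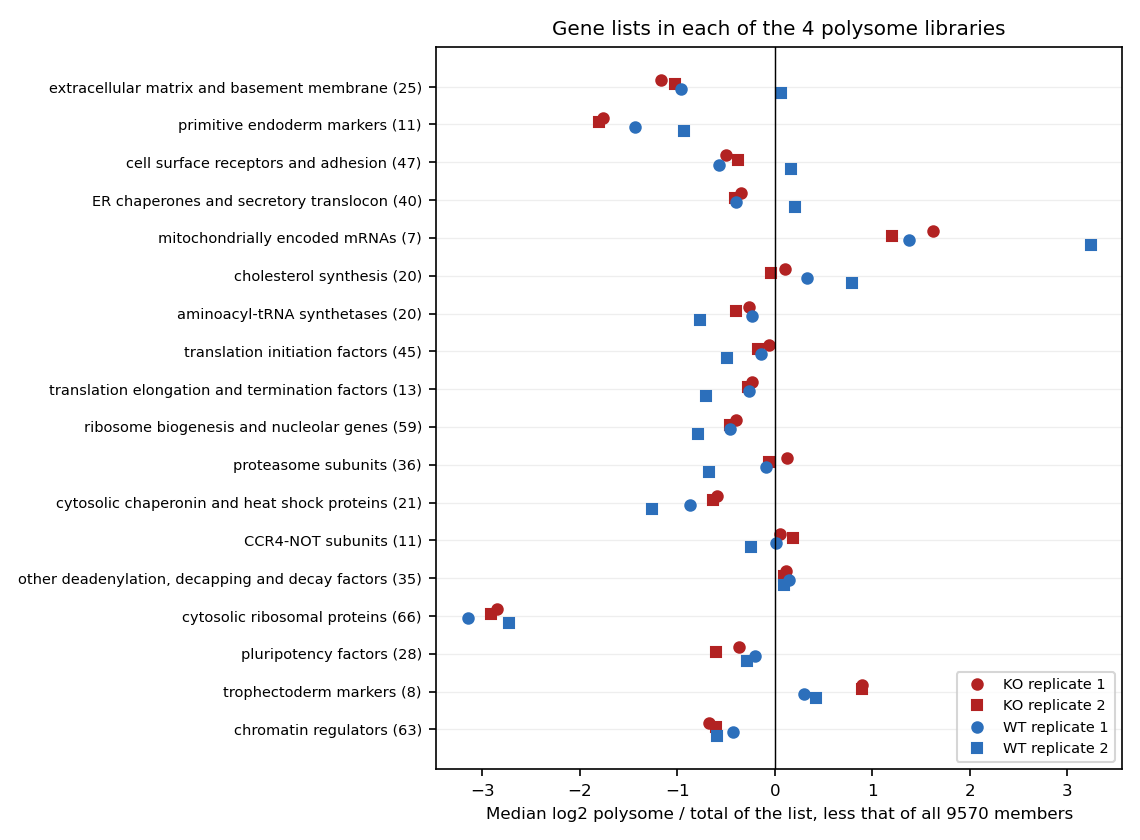
Median log2 polysome over total level of 18 gene lists in each polysome library, less the median of all 9570 genes in that library (number of members in brackets); red is KO and blue WT, circles replicate 1 and squares replicate 2. WT replicate 2 stands apart for the matrix, receptor, ER and mitochondrial lists, while for cholesterol synthesis both WT libraries (0.33 and 0.79) lie above both KO libraries (0.10 and -0.04).

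Pluripotency factors were lower in KO cells in both fractions. Of 28 measured, 19 fell in polysomes, where 21.1% of all genes tested did, and 21 fell in total RNA, where 12.2% did, while none rose. The median association change was -0.13, and it was 0.09 without WT polysome replicate 1 and -0.30 without replicate 2. Pou5f1, the central factor of the pluripotent state, had 484 and 350.1 CPM in KO polysomes, against 1044 and 678 CPM in WT polysomes. In total RNA Pou5f1 had 212 and 205 CPM in KO cells, against 445 and 437 CPM in WT cells. Its association change was 0.04 ± 0.32, with a 95% interval from -0.66 to 0.73. Sox2, its partner on DNA, had 501 and 389 CPM in KO polysomes, against 915 and 711 CPM in WT polysomes, and an association change of 0.14 ± 0.27. Nanog had 333 and 322 CPM in KO polysomes, against 542 and 355 CPM in WT polysomes, and its association change of -0.01 ± 0.28 had an interval from -0.62 to 0.61. The signs of all 3 turned under some settings, as given in the closing section.

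Dppa3, a maternal factor that guards DNA methylation, was the pluripotency gene with the smallest p. It had 20.4 and 16.2 CPM in KO polysomes, against 53.8 and 52.5 CPM in WT polysomes. In total RNA the levels of Dppa3 were 17.8 and 18.3 CPM in KO cells, against 26.8 and 22.1 CPM in WT cells. Its association change was -1.10 ± 0.23, and -1.09 or -1.12 without either WT polysome library. Fbxo15, an ESC-specific F-box gene, had 91.5 and 81.5 CPM in KO polysomes, against 243 and 218 CPM in WT polysomes, and an association change of -0.87 ± 0.20.

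Trophectoderm markers were the list with the highest median, 0.48 over the 8 of 18 that reached 5 CPM in every library. All 8 rose in both fractions, where 15.9% of all genes tested did in polysomes and 16.0% in total RNA. The log2 polysome over total level of the list, relative to all 9570 genes, was 0.89 and 0.90 in KO polysomes and 0.30 and 0.42 in WT polysomes, and the median change was 0.64 without WT polysome replicate 2. Markers under the limit in WT libraries are not among the 8, so the list as measured is a part of the marker set. In bulk RNA, more cells of a type and more RNA per cell cannot be told apart. Krt8 had 73.0 and 196 CPM in KO polysomes, against 12 and 16.1 CPM in WT polysomes. Krt18, its pairing partner, had 138 and 365 CPM in KO polysomes, against 23.9 and 33.5 CPM in WT polysomes. KO polysome replicate 2 was far above replicate 1 for both, and their polysome over total values overlapped between genotypes. Cldn4, a tight junction protein, went the other way, with an association change of -0.70 ± 0.34 and levels of 271 and 392 CPM in KO polysomes, against 145 and 240.0 CPM in WT polysomes. Of the other marker lists, 11 primitive endoderm genes had a median of -0.60 (-0.10 without WT polysome replicate 2), 4 epiblast genes -0.09 (0.17 without WT polysome replicate 1 and 0.10 without replicate 2), 3 neuroectoderm genes 0.36, 3 feeder fibroblast genes -0.51 and 1 mesoderm gene -0.34, and no 2-cell-stage gene reached the limit.

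Short-lived transcripts and mRNAs with regulatory upstream open reading frames (uORFs) held single genes with large values. Egr1, an immediate early transcription factor, fell in total RNA, with 6.04 and 7.47 CPM in KO cells, against 18.2 and 21.9 CPM in WT cells. In polysomes Egr1 had 45.5 and 71.8 CPM in KO cells, against 88.8 and 93.8 CPM in WT cells, for an association change of 0.93 ± 0.30 (edgeR adjusted p = 0.285). Atf4, the uORF-controlled factor of the integrated stress response, had 164 and 139.6 CPM in KO polysomes, against 336 and 221 CPM in WT polysomes. Its total RNA was 69.7 and 70.4 CPM in KO cells, against 82.3 and 77.3 CPM in WT cells. Ddit3, a stress factor with a uORF, had 15.7 and 21.1 CPM in KO polysomes, against 28.1 and 32.1 CPM in WT polysomes. The 14 genes of the uORF list had a median of -0.03, with 7 above and 7 below 0, and the 22 p53 targets one of 0.03. Among 63 chromatin regulators the median was -0.07 (0.01 without WT polysome replicate 1 and -0.17 without replicate 2), and among 218 numbered Zfp genes -0.14.

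Transcript features were read as medians, with no test. With the genes cut into 4 equal groups, medians by coding length ran from -0.02 in the shortest group (78 to 897 bases) to -0.12 in the longest (2304 to 22182 bases), with 2391 genes each and annotated transcripts for 9564 of the 9570. Without WT polysome replicate 2 they ran from -0.04 to -0.13, in the same order. By GC content at the last codon position the medians ran from -0.03 in the lowest group to -0.11 in the highest, and from -0.08 to -0.07 without WT polysome replicate 2. Genes with an ATG in the 5′ untranslated region (4865) had a median of -0.07 and those without (4699) one of -0.06. For 2521 genes with the Pumilio motif TGTANATA on the mRNA strand of the 3′ untranslated region the median was -0.04, against -0.07 for 7043 without, and for 6571 genes with an ATTTA pentamer it was -0.06, against -0.07 for 2993 without.

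The actinomycin D series gave readouts in libraries that the rule did not use. Actinomycin D blocks transcription, and slopes over 0, 4 and 8 h, in log2 units per hour relative to library size, follow how fast a transcript is lost. On day 2, before the block, 2341 of the 9570 genes rose, where 29.8% of all genes tested did, and 4349 fell, where 32.9% did. The slope was higher in KO cells, which is slower loss relative to other transcripts, for 1486 genes, where 10.2% of all genes tested passed. It was lower in KO cells for 1186, where 8.78% passed.

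Of the 39 genes described above with a negative association change, 24 fell and 7 rose on day 2, while the slope difference passed upward in 6 and downward in 7. Of the 7 with a positive association change, 3 rose and 2 fell on day 2. Their slope difference passed upward in 3 and downward in 0. Of all 9570 genes 45.4% fell and 24.5% rose on day 2, and the slope difference passed upward in 15.5% and downward in 12.4%. Id2 rose on day 2 (log2 change 1.74 ± 0.08, edgeR adjusted p = 6.97e-21) and had a higher slope in KO cells (0.305 ± 0.080 per hour, edgeR adjusted p = 0.0289). Fam49a had a slope difference of 0.114 ± 0.024 per hour and Foxp1 one of 0.039 ± 0.012, both past the threshold. Slc1a5, an amino acid transporter, had a lower slope in KO cells, with a slope difference of -0.086 ± 0.012 per hour. Its slope in WT cells was 0.088 ± 0.008 per hour, a rise relative to library size. Nrp2 fell by 0.13 ± 0.05 on the log2 scale on day 2, whereas it rose in total RNA on day 3.

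Over the 9570 genes, the association change and the slope difference had a Spearman correlation of 0.16, a description over genes with no p given. With the genes cut into 4 equal groups by association change, from the lowest to the highest, a higher slope in KO cells was called in 9.61%, 14.7%, 17.6% and 20.3% of genes, and a lower slope in 16.3%, 13.9%, 11.2% and 8.07%. Without WT polysome replicate 2 the correlation was 0.05, the share with a higher slope was 13.5% in the lowest and 14.2% in the highest group, and that with a lower slope was 14.7% and 11.4%. The lowest and highest groups thus lay closer together without that library. Day 2 changes had a Spearman correlation of 0.07 with the association change, and 0.08 without WT polysome replicate 2.

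**Figure D5:**
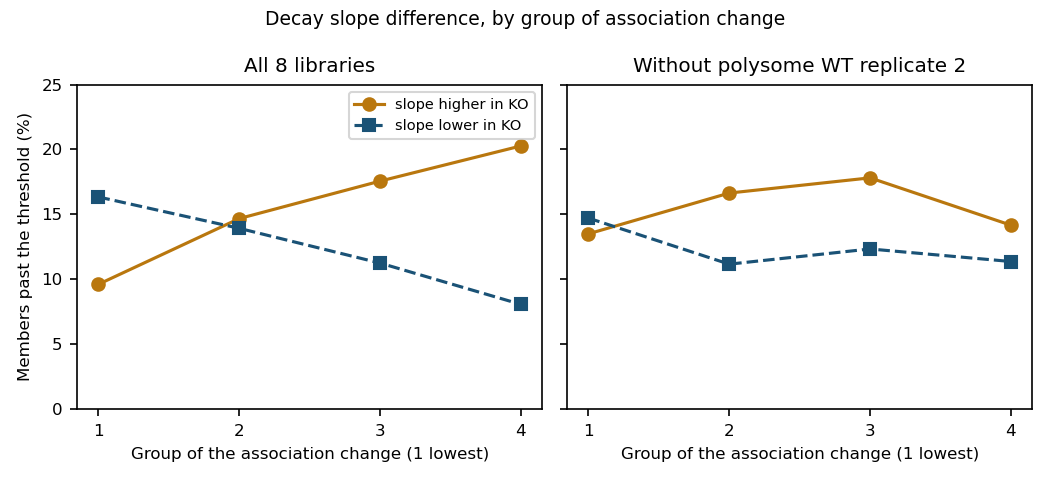
Percent of genes whose decay slope was higher (solid line, circles) or lower (dashed line, squares) in KO than in WT cells past the threshold, by group of the association change (1 lowest, 4 highest), with all 8 libraries (left) and without WT polysome replicate 2 (right). On the left the solid line lies at 9.61%, 14.7%, 17.6% and 20.3%, and on the right at 13.5%, 16.6%, 17.8% and 14.2%.

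The limit of 5 CPM decided which genes were described. Just inside it were Tinagl1 and Trp73, both lowest at 5.02 CPM, and just outside Cdcp1 and Gm4779, both lowest at 4.99 CPM. A further 1319 protein-coding genes had a mean of at least 5 CPM but fell under it in a library. Their lowest library was KO polysome in 259, WT polysome in 302, KO total in 168 and WT total in 590.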

How the data were processed

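The authors deposited raw counts of reads per gene for 20 libraries in 10 groups of 2. Per the submitters' processing notes, reads were aligned with STAR 2.3.0e to mm9 with HTSeq as the counter. The HTSeq version, the strand setting and the RNA selection are not given in the sources used here. Symbols, biotypes and coordinates came from GENCODE M21 (GRCm38) by gene ID, and start sequences from RefSeq (GRCm38.p6), which matched 80.4% of the genes by symbol.

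The 8 day 3 libraries were fitted together with edgeR 4.0.16 (R 4.3.3): genes kept by filterByExpr at a count of 10, scaling by TMM, a robust quasi-likelihood test of the interaction, and Benjamini-Hochberg adjustment over all genes tested, threshold 0.05. The 12 actinomycin D libraries had a fit of their own. Errors of log2 changes are standard errors of the fit. Per-library log2 polysome over total values used a prior count of 2. The steps were tested on simulated data with the same spread in every group. That simulation does not cover the unequal spread of the day 3 groups, which was widest in WT polysomes. The genes named were those with the 6 largest positive and 6 largest negative association changes without overlap of KO and WT, then Cnot3, Pou5f1, Sox2 and Nanog, and the genes nearest the 5 CPM limit. Added after their values were seen were genes that passed with either WT polysome library left out and, since no list held a gene past the threshold, genes with the smallest p of a list. A gene so chosen is not reported here. The members, lists and tests were chosen with earlier results of these data known. Replicate differences of the 6 pairs of groups correlated at -0.04 to 0.34, so replicate numbers were not taken to pair samples. Counting error is a small part of the spread in the day 3 groups, and 2 replicates limit the precision. Alternatives covered scaling, filters, DESeq2 1.42.0, a replicate block, the CPM limit and each library left out.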

Additional observations from a re-analysis of the deposited data

Results flagged for a closer look

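Among the 99 genes followed singly, in 17 every KO polysome library lay on 1 side of the WT ones and every KO total library on the opposite side of its WT ones. Over all 9570 genes this held for 82 with the higher KO levels in polysomes and 257 with the lower ones there. Most of the 99 were named for their association change, so these counts are a description. The share over all genes tested was not counted. By edgeR the difference between the fractions did not pass the test for any of these genes. The association changes on the positive side were 1.38 for Efnb2, 1.12 for Fam49a, 0.805 for Msi2, 0.537 for Zfp36 and 0.534 for Psmc5. On the negative side they were -1.57 for Nrp2, -1.33 for Stard9, -1.21 for Rimklb, -1.16 for Plod1, -1.15 for Stat2, -1.11 for Pecam1, -1.11 for Ddit3, -0.911 for Inpp5d, -0.833 for Aldh18a1, -0.770 for Nsdhl, -0.729 for Ezh1 and -0.470 for Btg1. Plod1 is a lysine hydroxylase of collagen, Pecam1 an adhesion protein, Inpp5d a lipid phosphatase, Aldh18a1 an enzyme of proline synthesis and Ezh1 a histone methyltransferase.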

How the results depend on the processing

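Counts here are members with a positive and a negative change. For the association change, 0 and 0 in the reported fit, they were 12 and 27 with DESeq2, 9 and 2 with no filter, and 1 and 1 with members chosen by a mean of at least 5 CPM. Leaving out a library gave 0 to 1477 and 0 to 2239, the highest without WT polysome replicate 1 and 10 and 46 without WT polysome replicate 2. They stayed at 0 and 0 with a replicate block (the number as a term), RLE scaling, library totals, protein-coding genes alone, a filter at 1 CPM and the other CPM limits. Members at an unadjusted p under 0.05 ranged from 80 to 2199 and from 140 to 2764 over all settings. The median of the members, -0.06 as reported, was 0.022 with RLE scaling and ran from -0.088 to 0.105 with a library left out, positive when any 1 of the total libraries was left out.

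The polysome contrast, 989 and 2787 as reported, gave 2111 and 1312 with library totals and 631 and 1340 with the 4 polysome libraries alone, and 504 to 2300 and 1373 to 3759 with a library left out. The total contrast, 905 and 1552, gave 2163 and 552 with library totals and 2332 and 4074 with the 4 total libraries alone, and 176 to 251 and 410 to 703 with a library left out. Day 2 counts, 2341 and 4349, were 1484 with RLE scaling for the first and 3829 and 2788 with library totals, and 1754 to 2146 and 3910 to 4408 with a library left out. Slope differences downward, 1186, were 451 with RLE scaling, 541 with library totals and 351 to 1600 with a library left out; upward ones ran from 1127 to 1708.

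Of 1485 values of 99 single genes under these settings, 1300 kept direction and side of the threshold, 168 newly passed it and 17 changed sign. Genes named for passing with either WT polysome library left out newly passed in those settings by that choice. None of the 99 passed in the reported fit, so none could lose a pass. These tallies are therefore a description. Nanog turned to 0.075 with RLE scaling and with DESeq2, 0.18 with no filter, 0.0066 with protein-coding genes alone and 0.0094 with a replicate block, and ran from -0.28 to 0.33 with a library left out. Cnot10 turned to 0.0071 with no filter and ran from -0.22 to 0.019 with a library left out. Pou5f1 ran from -0.24 to 0.38 and Sox2 from -0.051 to 0.41, both negative without KO polysome replicate 1 and without WT polysome replicate 2. The cause was not tested. With 2 libraries a group, the 95% interval of an association change reached a median of 0.515 log2 units to either side.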
